A study of Mus musculus with 6 samples.

Results

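Cytochrome P450 enzymes of families 1 to 4 were examined in RNA from liver F4/80-positive cells. The 77 members were the protein-coding genes whose GENCODE M21 symbol starts with Cyp, a family number from 1 to 4 and a subfamily letter, leaving out Cyp1a2, Cyp2e1 and Cyp2f2, out of 49315 genes counted (21734 of them protein-coding). RNA came from 3 WT and 3 Lpcat3 KOMac mice on a C57BL/6N background, 1 library per mouse. Lpcat3 KOMac mice were Lpcat3 fl/fl with LysM Cre/+ and WT mice were Lpcat3 fl/fl littermates with LysM +/+, so both genotypes carried the floxed alleles and only the former carried the Cre. The LysM promoter drives Cre in myeloid cells, where deletion is partial. Mice entered the diet at 8 to 12 weeks of age and received HFD (60% fat) for 16 weeks, without other treatment. Cells in the supernatant of collagenase-digested livers were picked with anti-F4/80 magnetic beads, a selection for the macrophage antigen encoded by Adgre1.

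P450s are heme enzymes of the endoplasmic reticulum that insert oxygen into lipids, steroids and drugs with electrons supplied by P450 reductase. In liver, most enzymes of families 1 to 3 work in hepatocytes on foreign compounds and steroids, while family 4 enzymes hydroxylate the far end of fatty acids, arachidonic acid and leukotriene B4 included. Cyp4a14 is a hepatocyte fatty acid hydroxylase under PPARα, and Cyp4f18 is a leukotriene B4 hydroxylase of neutrophils and other myeloid cells.

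Total counts lay between 44954224 and 71392812 per library. Below, 3 values for a genotype are those of its mice 1, 2 and 3, in that order. The deleted gene, Lpcat3, had levels of 85.0, 66.2 and 61.2 CPM (counts scaled to library size by TMM) in WT and of 19.5, 33.3 and 19.4 CPM in Lpcat3 KOMac cells, so the genotypes did not overlap. Its log2 fold change was -1.56 (SE 0.264), with an unadjusted p-value of 0.00119 and an adjusted p-value of 1 by edgeR's quasi-likelihood test. Y-linked Ddx3y ranged from 114 to 155 CPM in the 6 libraries, and Xist did not exceed 0.0637 CPM. The 7 Kupffer cell and macrophage transcripts summed to between 22746 and 40413 CPM. Some varied more than that sum. Marco ran from 148 CPM in Lpcat3 KOMac mouse 2 to 3168 CPM in WT mouse 2, and Timd4 from 123 to 938 CPM in the same mice. Clec4f was at 9170, 12172 and 8772 CPM in WT and 7361, 6449 and 8331 CPM in Lpcat3 KOMac cells (log2 fold change -0.44, SE 0.171). Albumin mRNA (Alb), made by hepatocytes, was also abundant and uneven, at 13054, 1205 and 1319 CPM in WT and 3131, 9289 and 3138 CPM in Lpcat3 KOMac cells. The highest Alb value, in WT mouse 1, was 10.8 times the lowest, in WT mouse 2, and Lpcat3 KOMac mouse 2 came second. In these bulk samples fewer hepatocytes and less RNA per hepatocyte cannot be told apart.

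The members fell into 2 kinds by how they moved with Alb, and 5 promoters are shown to put both kinds side by side. Cyp2d9 and Cyp2d26 (steroid and drug hydroxylases of hepatocytes) and Cyp4f14 followed Alb across libraries, whereas Cyp4f13, the neighbour of Cyp4f14, and Cyp4f18 did not. Each sequence is the 250 bases before the RefSeq start on GRCm38.p6, 5′ to 3′ on the gene's strand, with capitals for a match on either strand to TATAAA (the TATA box core), AGGTCA (a nuclear receptor core) or GGAAGT (an ETS core). The windows are chr15:82452127-82452376 (plus strand) for Cyp2d9, chr15:82794246-82794495 (minus) for Cyp2d26, chr17:32917343-32917592 (minus) for Cyp4f14, chr17:32947362-32947611 (minus) for Cyp4f13 and chr8:72009627-72009876 (minus) for Cyp4f18.
Cyp2d9: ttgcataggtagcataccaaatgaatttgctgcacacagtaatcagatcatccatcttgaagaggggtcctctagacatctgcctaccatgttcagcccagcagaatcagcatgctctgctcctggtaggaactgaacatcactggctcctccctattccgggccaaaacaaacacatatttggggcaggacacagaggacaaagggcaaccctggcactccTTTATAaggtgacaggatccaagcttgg
Cyp2d26: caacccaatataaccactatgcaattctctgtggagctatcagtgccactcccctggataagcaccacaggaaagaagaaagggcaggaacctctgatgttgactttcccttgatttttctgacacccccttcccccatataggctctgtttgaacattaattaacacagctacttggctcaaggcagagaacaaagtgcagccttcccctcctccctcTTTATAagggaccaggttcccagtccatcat
Cyp4f14: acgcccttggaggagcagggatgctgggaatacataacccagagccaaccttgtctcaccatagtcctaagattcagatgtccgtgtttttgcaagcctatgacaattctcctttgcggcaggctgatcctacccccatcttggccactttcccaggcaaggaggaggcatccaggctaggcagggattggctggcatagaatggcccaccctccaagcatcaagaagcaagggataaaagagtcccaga
Cyp4f13: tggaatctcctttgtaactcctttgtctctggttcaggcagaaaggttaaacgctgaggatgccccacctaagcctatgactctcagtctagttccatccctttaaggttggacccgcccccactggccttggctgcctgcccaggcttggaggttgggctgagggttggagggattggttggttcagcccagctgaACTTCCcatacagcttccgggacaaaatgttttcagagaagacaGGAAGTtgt
Cyp4f18: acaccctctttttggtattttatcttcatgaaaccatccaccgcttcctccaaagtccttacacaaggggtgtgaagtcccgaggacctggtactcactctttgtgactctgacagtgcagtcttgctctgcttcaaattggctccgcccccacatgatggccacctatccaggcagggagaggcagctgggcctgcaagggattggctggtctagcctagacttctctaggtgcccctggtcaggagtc
The capitals TTTATA at the right end of Cyp2d9 and Cyp2d26 are TATAAA on the other strand, at 28 and 31 bases before the start. GGAAGT and its reverse ACTTCC stand in Cyp4f13. No capitals occur in Cyp4f14 or Cyp4f18, which says only that these letters are not in the window. RefSeq lists 4 starts for Cyp4f14, of which 1 is shown. The Cyp4f13 start lies 41 bases inside the gene as drawn in the deposited tables.

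Of the 77 members, 49 had enough counts to be tested (edgeR's default filter, minimum count 10, which passes genes with counts in as few libraries as the smaller group). Of the 28 others, 10 had 0 counts in every library, among them Cyp2c65 and Cyp4f40, and 18 had few, with at most 63 counts in any library (Cyp2d11, WT mouse 1). Each 0 allows up to 3 counts in that library, by counting error alone. Cyp1b1, which hydroxylates estradiol and polycyclic hydrocarbons, was among the latter with 9, 2, 13, 12, 5 and 5 counts in the 3 WT and then the 3 Lpcat3 KOMac libraries. Cyp2b10, the standard target of the receptor CAR, had between 0 and 28 counts. The other family 1 gene examined, the AhR target Cyp1a1, was also low, with between 3 and 23 counts.

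A member was taken to follow Alb where the SD over the 6 libraries of log2(member CPM/Alb CPM) was smaller than that of log2(member CPM), which equals a slope on Alb above 0.5 on log2 scales. This held for 39 of the 49 tested members (79.6%), against 1540 of all 16134 genes tested (9.55%). Their slopes ran from 0.52 (Cyp2j9) to 1.68 (Cyp2a22), and 33 were above 1, so that most varied more than Alb itself. The 10 others had slopes from -0.27 (Cyp2t4) to 0.40 (Cyp1a1). The division was uneven at its edge: Cyp2j9 lay just inside at 0.52 and Cyp1a1 and Cyp4f17 just outside at 0.40 and 0.35. As a description of the same values that made the division, the highest library stood at a median of 25.8 times the lowest in members that followed Alb and 2.45 times in the rest. WT mouse 1 was highest in 33 of the 39 and Lpcat3 KOMac mouse 2 in 6, and the lowest library was WT mouse 3 in 26 and WT mouse 2 in 13. Alb is a reference within the same libraries, so the 6 points share depth and normalization with the members. Leaving out both libraries highest in Alb, a choice made after seeing the data, gave 41 members that followed it. In the libraries left, Alb was at 1205 and 1319 CPM in WT and 3131 and 3138 CPM in Lpcat3 KOMac cells. Following Alb and differing between genotypes cannot be told apart there, so this count is no check of the division.

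**Figure D1:**
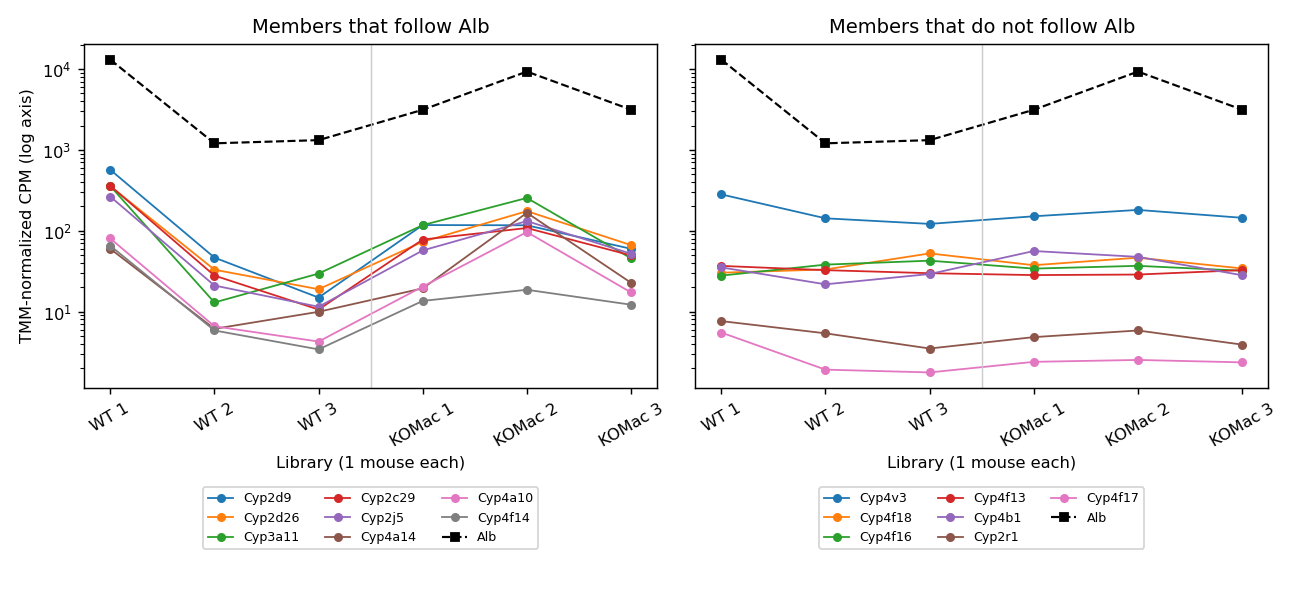
TMM-normalized CPM (log axis) in each of the 6 libraries for 8 members that follow Alb (left) and 7 that do not (right), each point 1 mouse, with Alb as the dashed black line. On the left the lines rise and fall with Alb, highest in WT mouse 1 or Lpcat3 KOMac mouse 2, and on the right each line varies far less.

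Subfamily membership and slope went together. All tested members of Cyp2a (4), Cyp2b (2), Cyp2c (11), Cyp2d (6), Cyp2j (3), Cyp3a (4) and Cyp4a (6) followed Alb, as did Cyp2u1. The members that did not were single genes of small subfamilies (Cyp1a1, Cyp2r1, Cyp2s1, Cyp2t4, Cyp4b1 and Cyp4v3) and 4 of the 6 tested Cyp4f genes. Close paralogs share reads, so the counts within Cyp2a, Cyp2c, Cyp2d, Cyp3a and Cyp4a are uncertain where sequence is shared. Of the 50-base stretches of their transcripts, 48.9% were shared by Cyp4a12a with Cyp4a12b, 36.1% by Cyp2a4 with Cyp2a5 and 22.9% by Cyp2d10 with Cyp2d11, while Cyp4v3 shared none with any other P450.

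**Figure D2:**
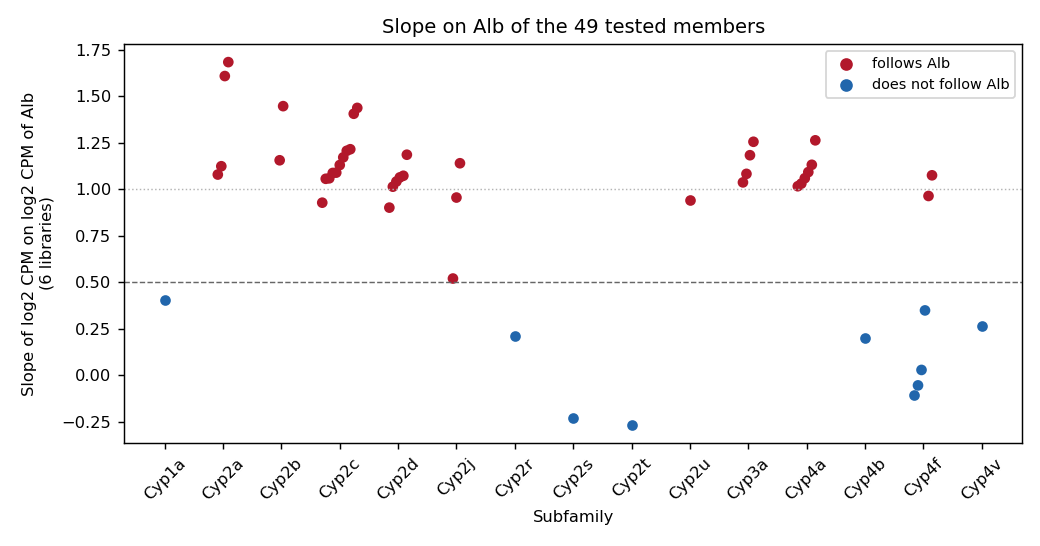
Slope of log2 CPM on log2 CPM of Alb over the 6 libraries for each of the 49 tested members (1 point each), by subfamily, with the dashed line at 0.5 that divides members following Alb (red) from the rest (blue). Cyp2a, Cyp2b, Cyp2c, Cyp2d, Cyp2j, Cyp3a and Cyp4a lie wholly above the line and Cyp4f lies on both sides.

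In promoters the 2 kinds differed most in TATAAA. The letters searched were picked after the data had been seen and carry no test. RefSeq gave a promoter for 62 of the 77 members and 38 of the 49 tested. For 24 of the 62 the RefSeq start equalled the start of the gene as deposited. The windows of the others were placed at a different start. TATAAA on either strand, the core of the TATA box, stood in 16 of 29 promoters of members that followed Alb (55.2%), in 1 of 9 of the others (11.1%, Cyp1a1) and in 11.9% of the 16455 promoters of all genes. AGGTCA, a core of nuclear receptor sites, stood in 8 of 29 (27.6%), 1 of 9 (11.1%) and 12.4%, in the same order. GGAAGT, a core of ETS factor sites, stood in 6 of 29 (20.7%), 3 of 9 (33.3%) and 21%. GCGTG, the AhR core, stood in 2 of 29 (6.9%), 3 of 9 (33.3%) and 34.8%. Shares among the 9 rest on very few promoters. Paralogs of 1 cluster share sequence, so promoters are not independent of each other, and a match is not a bound site.

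Per kilobase of exon, the most abundant members that followed Alb were Cyp2d9 (93.2 mean CPM per kilobase over the 6 libraries), Cyp2d26 (73.1) and Cyp2d10 (50.3), which are hepatocyte enzymes of steroid and drug hydroxylation. Cyp2d9 was at 567, 46.6 and 14.9 CPM in WT and 118, 117 and 59.8 CPM in Lpcat3 KOMac cells. WT mice thus spanned a 38-fold range that enclosed every Lpcat3 KOMac value. Cyp2d26 stood at 356, 33.0 and 18.9 CPM in WT and 73.1, 175 and 66.4 CPM in Lpcat3 KOMac cells, again with the genotypes overlapping. Cyp2d10 gave 262, 23.4 and 12.9 CPM in WT and 55.1, 101 and 42.6 CPM in Lpcat3 KOMac cells. Their log2 fold changes of -1.10 (SE 1.30), -0.37 (SE 1.17) and -0.58 (SE 1.17) were smaller than their standard errors.

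Family 3 holds the main drug-metabolizing P450s of liver and is regulated by the receptor PXR. Cyp3a11 was at 357, 13.0 and 29.5 CPM in WT and 117, 254 and 45.6 CPM in Lpcat3 KOMac cells. Cyp3a25, a second hepatic 3A enzyme, was at 119, 13.2 and 7.22 CPM in WT and 31.2, 75.9 and 28.9 CPM in Lpcat3 KOMac cells. Both were highest in WT mouse 1, then in Lpcat3 KOMac mouse 2, as Alb was. Cyp3a13, found in liver and gut, was at 45.5, 4.37 and 2.60 CPM in WT and 9.59, 27.9 and 8.99 CPM in Lpcat3 KOMac cells. The log2 fold changes of these 3 genes lay between -0.18 (SE 1.18) and 0.06 (SE 1.33).

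The Cyp4a genes hydroxylate fatty acids, and Cyp4a12a and Cyp4a12b make 20-HETE from arachidonic acid. Cyp4a14 (chr4:115486200-115496142, minus strand) was at 59.8, 6.13 and 9.95 CPM in WT and 19.4, 167 and 22.7 CPM in Lpcat3 KOMac cells. Its library order was not that of Alb, since Lpcat3 KOMac mouse 2 exceeded WT mouse 1. Its mean was 25.3 ± 30.0 CPM in WT and 69.6 ± 84.1 CPM in Lpcat3 KOMac cells (SD, n = 3 each), and the log2 fold change was 1.46 (SE 1.26, unadjusted p = 0.293 by edgeR). Without Lpcat3 KOMac mouse 2 it was -0.27, and without WT mouse 1 it was 3.12. Cyp4a10 was likewise highest in that mouse, at 80.2, 6.59 and 4.26 CPM in WT and 20.4, 96.4 and 17.3 CPM in Lpcat3 KOMac cells. Cyp4a12a was not highest there, at 56.1, 5.65 and 1.44 CPM in WT and 16.6, 10.4 and 2.95 CPM in Lpcat3 KOMac cells, with WT mouse 1 far above the rest. Cyp4a12b had 534, 57 and 1 counts in WT and 123, 18 and 38 in Lpcat3 KOMac cells, and a log2 fold change of -1.52 (SE 1.61), the lowest of the tested members. The genotypes overlapped in all 4 genes.

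Among members that did not follow Alb, Cyp4v3 was the most abundant per kilobase (44.7 mean CPM per kilobase). It is a fatty acid hydroxylase whose human counterpart, CYP4V2, is mutated in Bietti crystalline dystrophy. It lay at 281, 142 and 122 CPM in WT and 151, 181 and 145 CPM in Lpcat3 KOMac cells, with WT mouse 1 above the other 5 libraries. Cyp4f18 (chr8:71988482-72009626, minus strand) came second at 21.02 mean CPM per kilobase. It was at 30.3, 33.2 and 52.4 CPM in WT and 37.5, 46.5 and 34.1 CPM in Lpcat3 KOMac cells, with its lowest value in WT mouse 1, where Alb was highest. The means were 38.6 ± 12.03 and 39.4 ± 6.37 CPM (SD, n = 3 each), and the log2 fold change was 0.03 (SE 0.244). The neutrophil transcripts S100a8, S100a9, Ly6g, Retnlg, Cxcr2 and Mmp8 together reached 3.36 to 5.18 CPM in WT and 6.47 to 8.04 CPM in Lpcat3 KOMac libraries, with Ly6g at most 0.0637 CPM, so their whole sum was below Cyp4f18 in each library. The 4 monocyte transcripts summed to 75.3 to 142 CPM in WT and 74.0 to 141 CPM in Lpcat3 KOMac libraries. The 6 dendritic cell transcripts summed to 22.1 to 60.6 CPM and 35.4 to 41.9 CPM, in the same order. Which of these cells or macrophages gave the Cyp4f18 RNA was not tested. Cyp4f18 shares 181 bases of exon with Zfp961 on the opposite strand (at most 543 counts against 1607 to 2409 for Cyp4f18), and whether the counting used strand is not given in the sources used here.

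Cyp4f16 and Cyp4f13, relatives of the leukotriene hydroxylases, varied least over the libraries among the tested members. Cyp4f16 was at 27.9, 38.1 and 42.6 CPM in WT and 34.0, 36.8 and 32.04 CPM in Lpcat3 KOMac cells. Cyp4f13 was at 36.8, 32.6 and 29.9 CPM in WT and 28.3, 28.7 and 32.6 CPM in Lpcat3 KOMac cells. Their log2 fold changes were -0.08 (SE 0.171) and -0.15 (SE 0.114), so differences of the size of 1 on this scale would have exceeded several standard errors. Cyp4f17 was low at 5.51, 1.92 and 1.77 CPM in WT and 2.39, 2.53 and 2.36 CPM in Lpcat3 KOMac cells, with WT mouse 1 alone above the others. Cyp2r1, the vitamin D 25-hydroxylase, was at 7.63, 5.39 and 3.499 CPM in WT and 4.84, 5.84 and 3.91 CPM in Lpcat3 KOMac cells.

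Along chromosome 17 the 2 kinds are interspersed. Cyp4f37 and Cyp4f40, with too few counts to be tested, lie between Cyp4f16 and Cyp4f15. From the start of Cyp4f17, the tested genes are Cyp4f17 and Cyp4f16 (slopes 0.35 and -0.11), then Cyp4f15 and Cyp4f14 (1.08 and 0.96) and last Cyp4f13 (0.03), within 441 kb. Cyp4f14 was at 65.2, 5.85 and 3.41 CPM in WT and 13.6, 18.6 and 12.2 CPM in Lpcat3 KOMac cells, while Cyp4f13, the next gene on the same strand, kept within the narrow range given above. These neighbours share little sequence: 2.39% of the 50-base stretches of Cyp4f14 and 1.11% of those of Cyp4f13 occur in any other P450 transcript.

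**Figure D3:**
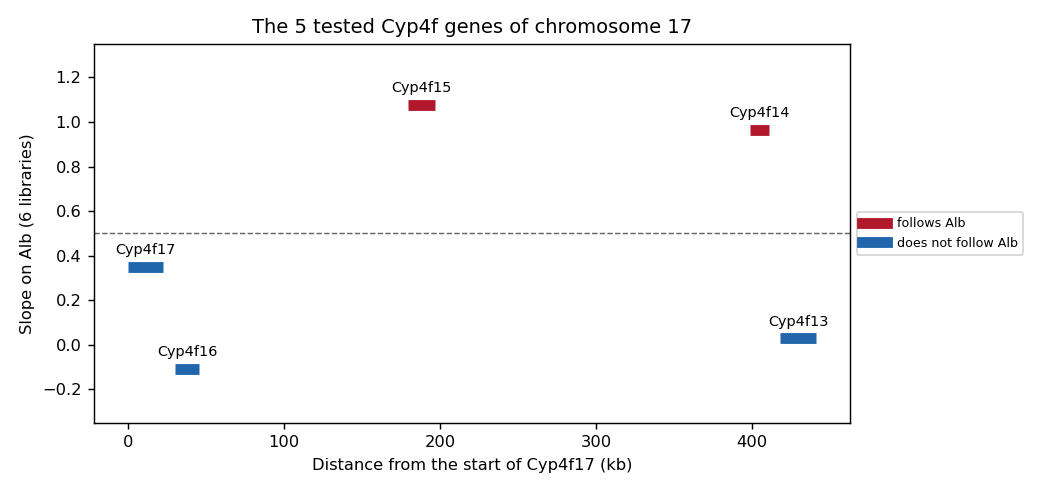
Slope on Alb (6 libraries) of the 5 tested Cyp4f genes of chromosome 17, drawn as bars over the extent of each gene in kb from the start of Cyp4f17, red where the gene follows Alb and blue where it does not. Cyp4f15 and Cyp4f14 lie near 1 and the tested genes on either side of them, Cyp4f16 and Cyp4f13, near 0.

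Cyp4b1, which oxidizes short fatty acids and is expressed in lung and in vessels, had the smallest p-value of the members. It was at 35.2, 21.8 and 29.2 CPM in WT and 56.1, 47.5 and 28.2 CPM in Lpcat3 KOMac cells, and 2 of the 3 Lpcat3 KOMac mice exceeded every WT mouse. The log2 fold change was 0.61 (SE 0.301, unadjusted p = 0.0893). These 2 mice were also the highest in 4 of the 6 endothelial transcripts examined (Oit3, Kdr, Lyve1 and Clec4g), but not in Stab2 or Pecam1. Oit3 was at 53.5, 28.0 and 44.0 CPM in WT and 82.9, 78.9 and 45.8 CPM in Lpcat3 KOMac cells. Kdr was at 68.6, 62.3 and 95.7 CPM in WT and 169, 131 and 91.5 CPM in Lpcat3 KOMac cells. Pecam1 went the other way, at 206, 283 and 209 CPM in WT and 185, 194 and 212 CPM in Lpcat3 KOMac cells, lowest in those mice. The 6 endothelial transcripts summed to 849 to 948 CPM in WT and 926 to 1146 CPM in Lpcat3 KOMac libraries, with 5 of 6 log2 fold changes above 0. The 6 stellate cell transcripts summed to 84.0 to 203 CPM in WT and 150 to 265 CPM in Lpcat3 KOMac libraries, and 1 of them, Rgs5, was highest in the same pair of mice as Cyp4b1. Zbtb46 of dendritic cells, Mmp8 and Cxcr2 of neutrophils, Cd3e of T cells and Spp1 and Krt19 of cholangiocytes also had that pair highest. The share of all genes with that pair highest was not counted. The part of any of these cell types in the Cyp4b1 values was not tested. Cyp2t4, an olfactory and lung P450 with 6 to 25 counts and 11 bases of exon shared with Egln2, and Cyp2s1 had counts too low for more than a description.

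Together the 77 members gave 4460, 622 and 471 CPM in WT and 1272, 2337 and 985 CPM in Lpcat3 KOMac libraries. The 10 members that did not follow Alb contributed 425, 276 and 281 CPM in WT and 315, 349 and 279 CPM in Lpcat3 KOMac libraries. Their share of the P450 total therefore moved from 9.53% in WT mouse 1 to 59.8% in WT mouse 3, while their own sum stayed between 276 and 425 CPM.

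No member was called between genotypes. Of the 49 tested, 0 passed an adjusted threshold of 0.05 by edgeR or limma-voom, and 0 passed it unadjusted, against 0% and 2.64% of all genes tested by edgeR. DESeq2 gave a p-value for 35 of the 49 and an adjusted one for 29, and 0 of these were under 0.05. The 14 for which it gave none, Cyp4a14 among them, were not tested by DESeq2. Log2 fold changes were above 0 in 23 members and below 0 in 26, with a median of -0.08 (all genes -0.04), and ran from -1.52 (Cyp4a12b) to 2.22 (Cyp2a4, SE 1.72). No tested member had 3 Lpcat3 KOMac values wholly above or below the 3 WT values, against 7.49% of all genes (2.29% wholly above and 5.2% wholly below). Among members with too few counts to be tested, Cyp4f37 and Cyp3a44 lay wholly above, on at most 8 and 4 counts in any library. The median SE was 1.23 for members that followed Alb, 0.333 for the others and 0.227 over all genes. At that error a change of 2-fold in a hepatocyte P450 was not detectable, and the missing calls do not show that the genotypes were alike.

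Leaving out WT mouse 1 moved the members most. Without it, an unadjusted p-value under 0.05 by edgeR was reached by 32 of 51 tested members, all higher in Lpcat3 KOMac cells, against 9.67% of all genes in that direction, and 0 had an adjusted p-value under 0.05. The median log2 fold change became 1.98 for all members, 2.15 for those that followed Alb and 0.21 for the rest. Alb moved alike, to a log2 fold change of 2.04 (SE 0.580), from -0.002 (SE 1.09) with every library, and the 6 hepatocyte transcripts had a median of 1.87. Of the 32, 31 were members that followed Alb. Leaving out any other library gave 0 or 1 such members and medians between -0.64 and 0.15, so the sign of the median over members also turned without Lpcat3 KOMac mouse 1 (0.10) or 3 (0.15).

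Relative to hepatocyte RNA, the spread narrowed. With the mean log2 CPM of 6 hepatocyte transcripts (Alb, Apoa1, Ttr, Trf, Fgb and Apoh) as a term in the edgeR fit, the median SE of members fell from 1.19 to 0.290. Of the 49, 5 were higher and 1 was lower in Lpcat3 KOMac cells at an unadjusted p-value under 0.05, while 9.15% of all genes passed in either direction, and 0 had an adjusted p-value under 0.05. Cyp2c38, a fatty acid hydroxylase and epoxygenase, had a log2 fold change of 0.66 (SE 0.149, unadjusted p = 0.00476, adjusted p = 0.486). The others were Cyp2t4 (1.11, SE 0.334), Cyp4a10 (0.66, SE 0.257), Cyp3a59 (0.55, SE 0.216) and Cyp2c70 (0.52, SE 0.211), which makes muricholic acids, and Cyp4v3 was lower by -0.27 (SE 0.0786). The log2 fold change of Cyp4a14 in this fit was 1.03 (SE 0.655) and that of Cyp4f18 was 0.11 (SE 0.236). The share of members past the unadjusted threshold, 6 of 49, was near that of all genes.

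**Figure D4:**
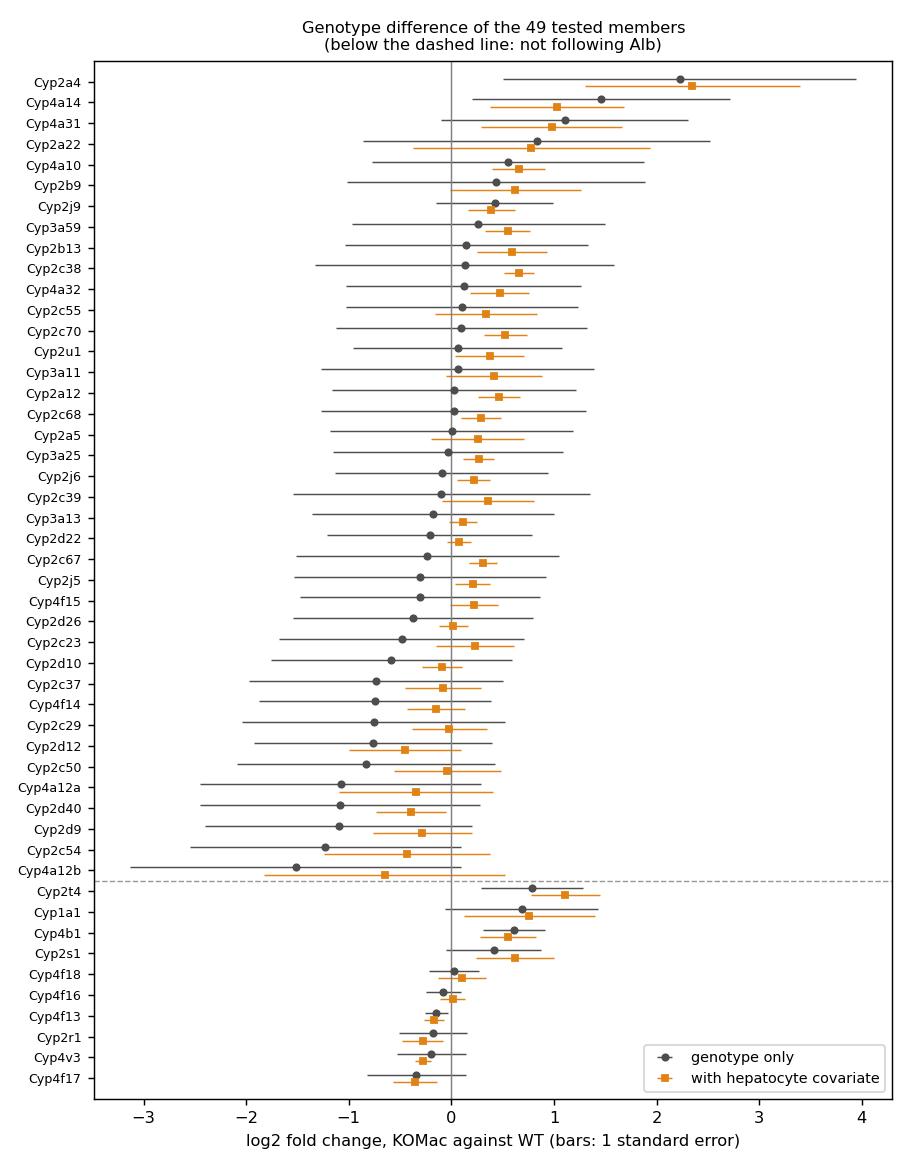
Log2 fold change of Lpcat3 KOMac against WT (horizontal axis, bars 1 standard error) for the 49 tested members, from edgeR with genotype only (grey circles) and with the hepatocyte term (orange squares), n = 3 mice per genotype. Above the dashed line are the 39 members that follow Alb, and below it the 10 that do not. Bars shorten with the hepatocyte term on both sides of the line, as in Cyp4v3 (SE 0.335 to 0.0786). Alb, which defined the 39, is part of that term.

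Divided by Alb in the same library, Cyp4a14 was at 4.58, 5.09 and 7.54 CPM per 1000 CPM of Alb in WT and 6.19, 17.9 and 7.24 in Lpcat3 KOMac cells. The genotypes overlapped, since WT mouse 3 exceeded Lpcat3 KOMac mice 1 and 3. The difference in mean log2 ratio was 0.73 (two-sided exact permutation p = 0.3, where the smallest p that 3 mice against 3 allow is 0.1), and without Lpcat3 KOMac mouse 2 it was 0.26. Cyp4a10 was at 6.15, 5.47 and 3.23 in WT and 6.51, 10.4 and 5.50 in Lpcat3 KOMac cells per 1000 CPM of Alb. Cyp4a31, a low member of the same cluster, was at 0.0519, 0.0497 and 0.0995 in WT and 0.0550, 0.166 and 0.0677 in Lpcat3 KOMac cells. All 3 were highest in Lpcat3 KOMac mouse 2 alone. Per Alb, 0 of the 39 tested members that followed Alb had non-overlapping genotypes, against 2.21% (higher) and 1.62% (lower) of the 1540 genes that followed Alb. Leaving out 1 mouse raised this count, to 6 higher and 1 lower without WT mouse 1 (6.17% and 17.4% of the 1540 genes) and to 2 higher and 9 lower without WT mouse 3 (5% and 15.1%). It was 1, 2 and 4, all higher, without Lpcat3 KOMac mouse 1, 2 and 3 (3.51%, 8.64% and 4.22% of the genes higher) and 0 without WT mouse 2. With Apoa1 as reference there were 4 (Cyp4a10, Cyp3a59, Cyp2a12 and Cyp2c70, all higher, against 8.77% of the genes higher and 0.455% lower), and with the mean of the 6 hepatocyte transcripts 3 (Cyp4a32, Cyp3a25 and Cyp2c70, all higher, against 7.08% higher and 1.17% lower).

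A group of members divided the libraries in another way once Alb was taken out, and it was noticed only after the values had been seen. Cyp4a12a was at 4.30, 4.69 and 1.09 CPM per 1000 CPM of Alb in WT and 5.30, 1.12 and 0.941 in Lpcat3 KOMac cells. WT mice 1 and 2 and Lpcat3 KOMac mouse 1 thus lay between 4.30 and 5.30 and the other 3 mice between 0.941 and 1.12. Cyp2d9 was at 43.5, 38.7 and 11.3 in WT and 37.6, 12.6 and 19.1 in Lpcat3 KOMac cells. Cyp4a12b, which shares sequence with Cyp4a12a, was at 0.630, 0.945 and 0.0166 in WT and 0.677, 0.0374 and 0.257 in Lpcat3 KOMac cells. The same 3 mice were highest in each, across both genotypes. Cyp4a12a and Cyp2d9 are known as male-predominant liver P450s under growth hormone control, and all 6 libraries carried Y-linked RNA. Cyp2c50 (21.3, 21.9 and 5.39 in WT, 21.7, 6.90 and 13.8 in Lpcat3 KOMac cells) was also highest in WT mice 1 and 2 and Lpcat3 KOMac mouse 1. So were Cyp2d26 (27.2, 27.4 and 14.3 in WT, 23.4, 18.8 and 21.2 in Lpcat3 KOMac cells), Cyp2d10, Cyp2c29 and Cyp4f14. The hepatocyte transcripts Apoh, Ttr and Fgb had the same 3 mice highest, while Apoa1 and Trf did not. Fgb was at 81.9, 84.3 and 58.3 in WT and 81.1, 52.4 and 65.1 in Lpcat3 KOMac cells. The order was thus not particular to sex-predominant members, and its share over all genes was not counted. Cyp2a4, a female-predominant steroid 15-hydroxylase, was at 0.0920, 0.0331 and 0.0663 in WT and 0.0495, 0.610 and 0.176 in Lpcat3 KOMac cells, highest in Lpcat3 KOMac mice 2 and 3. It rests on 2 to 294 counts and shares sequence with Cyp2a5. Cyp2b9, also female-predominant, was at 2.61, 0.530 and 2.54 in WT and 2.22, 3.97 and 2.51 in Lpcat3 KOMac cells and showed no such order. Neither did Cyp2b13, another female-predominant member, at 0.105, 0.0663 and 0.0663 in WT and 0.160, 0.108 and 0.0745 in Lpcat3 KOMac cells. Cyp2j6 was at 2.37, 2.27 and 2.34 in WT and 3.06, 1.87 and 2.40 in Lpcat3 KOMac cells.

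**Figure D5:**
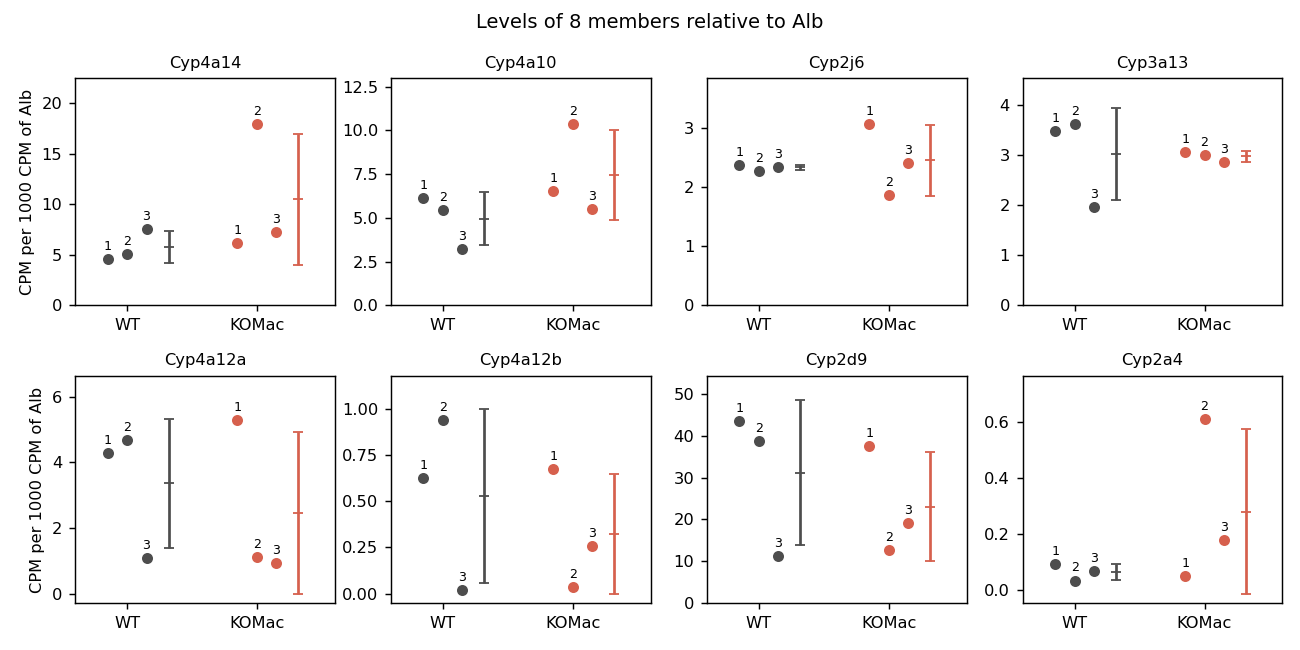
CPM per 1000 CPM of Alb for 8 members in WT (grey) and Lpcat3 KOMac (red) mice, with each point 1 mouse numbered 1 to 3 and the bar beside it the mean and SD (n = 3). Cyp4a14 and Cyp4a10 are highest in Lpcat3 KOMac mouse 2, whereas Cyp4a12a, Cyp4a12b and Cyp2d9 are high in WT mice 1 and 2 and Lpcat3 KOMac mouse 1.

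Genes that work with or control these P450s split along the same line, and an unadjusted p-value under 0.05 between genotypes was reached by 0 of the 29 in edgeR, against the 2.64% of all genes given above. Among 5 electron partners 2 followed Alb, and P450 reductase (Por) did not, at 246, 139 and 107 CPM in WT and 142, 229 and 160 CPM in Lpcat3 KOMac cells. Of the 2 epoxide hydrolases, Ephx2, which opens fatty acid epoxides, followed Alb, while Ephx1, which acts on foreign epoxides, did not and lay between 255 and 413 CPM. Of 10 regulators 5 followed Alb, namely PXR (Nr1i2), CAR (Nr1i3), PPARα (Ppara), Hnf4a and FXR (Nr1h4). Ppara, the receptor upstream of Cyp4a14, was at 77.9, 9.46 and 2.89 CPM in WT and 19.4, 49.3 and 12.7 CPM in Lpcat3 KOMac cells. The others, Ahr, Arnt, Ahrr, Rxra and Cebpa, did not follow it, and Rxra lay between 629 and 904 CPM. Of 12 P450s of other families 8 followed Alb, among them Cyp7a1 and Cyp8b1 of bile acid synthesis. Thromboxane synthase (Tbxas1), a P450 of macrophages, did not, at 171, 184 and 241 CPM in WT and 189, 168 and 210 CPM in Lpcat3 KOMac cells, with a log2 fold change of -0.07 (SE 0.161).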

How the data were processed

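RNA of liver F4/80-positive cells from 3 WT and 3 Lpcat3 KOMac mice was sequenced (poly-A selected, 1 library per mouse). The authors deposited raw read counts per gene for each library, without normalization. The submitters' processing notes name Trimmomatic 0.36, STAR 2.5.2b, featureCounts of Subread 1.5.2 and GRCm38. Strand setting, treatment of multi-mapping reads and annotation release are not given in the sources used here, which leaves paralogs and overlapping genes uncertain. Symbols came from GENCODE M21, and 62 of the 77 members had the same start and end there.

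Counts were compared with edgeR 4.0.16 (TMM, default filter with a minimum count of 10, robust quasi-likelihood test, genotype only) in R 4.3.3, adjusted by Benjamini-Hochberg over 16134 genes. Total counts per library were 44954224 to 71392812, and counting error adds little to the spread between mice except in the lowest members. A log2 fold change is Lpcat3 KOMac against WT, and its SE is the absolute value divided by the square root of F. CPM were TMM-normalized, with a prior count of 0.5 for log2 ratios. On simulated data with these means and library sizes, edgeR recovered 194 of 194 changed genes and called 8 unchanged genes among 15908. The fold change and the spread set in that run are not stated here. Power at the spread between these mice (median SE 1.23 for members that followed Alb) was not tested. No 2 libraries were copies of each other (chi-square per degree of freedom at least 40.7).

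The members and lists were chosen with earlier results of these data known. Named with values were Cyp4a14, Cyp4f18, Cyp4a12a and Cyp4a12b, the 3 members of each family highest per kilobase, members with a mean CPM of at least 1 that did not follow Alb and the 5 smallest p-values. Other members with values were added after their values were seen. Alternatives were DESeq2 1.42.0 and its size factors, limma-voom (limma 3.58.1), total counts, other filters, no robust dispersion, a replicate block, a hepatocyte covariate, other references and prior count 2, and leaving out each mouse. Leaving out both libraries highest in Alb was chosen after seeing the data. Replicate numbers come from the labels alone, and whether replicates shared litters or days is not given. The other measurements of the study were not analysed here. One regulator is not reported here.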

Additional observations from a re-analysis of the deposited data

How the results depend on the processing

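With fewer than 4 mice per genotype, single outlying mice were not tested for. At an adjusted p-value under 0.05, 0 members were called in every alternative run, among the 29 with an adjusted value in the case of DESeq2. At an unadjusted p-value the count was 1 without a filter (Cyp3a44, at most 4 counts), 6 with the hepatocyte covariate and between 0 and 32 leaving out each mouse, 32 being without WT mouse 1. The median log2 fold change of members lay between -0.64 and 1.98 leaving out each mouse, the highest again without WT mouse 1. With every library it was -0.08 in the main fit, but 0.84 with the replicate block and 0.62 with limma-voom. It was 0.26 with the hepatocyte covariate and 0.06 with total counts. The median stayed below 0 with DESeq2, its size factors, the other filters and no robust dispersion. The number of members that followed Alb lay between 38 and 41 among tested members and was 48 with every member that had a count. Members with non-overlapping genotypes per Alb were 4 with Apoa1 as reference, 3 with the mean of 6 hepatocyte transcripts and between 0 and 11 leaving out each mouse (11 without WT mouse 3, 7 without WT mouse 1). The causes were not tested.

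Of 19 named members with a fit, 4 kept their direction in every setting (Cyp1a1, Cyp4b1, Cyp4f13 and Cyp2t4), 7 reversed only when a mouse was left out and 8 also in another setting, none past the threshold. With the replicate block, log2 fold changes turned to 0.082 (Cyp4a12a), 0.51 (Cyp2d9), 0.87 (Cyp2d26), 0.72 (Cyp2d10), 1.06 (Cyp3a25) and 0.95 (Cyp3a13). The block changed no call. Deviations of same-numbered mice from their group means had a mean correlation of -0.17 (-0.57 to 0.35), against 0.11 for differently numbered mice. With 3 mice per genotype and so wide a range, this cannot show whether the numbers pair them. With limma-voom they turned to 0.15 (Cyp4a12b), 0.33 (Cyp2d9), 0.62 (Cyp2d26), 0.48 (Cyp2d10), 0.74 (Cyp3a25) and 0.52 (Cyp3a13). With the covariate they turned to 0.018 (Cyp2d26), 0.26 (Cyp3a25), 0.11 (Cyp3a13) and 0.014 (Cyp4f16), and with total counts to 0.13 (Cyp3a25) and 0.0044 (Cyp4f16). Leaving out each mouse gave ranges of -0.27 to 3.12 (Cyp4a14), -0.12 to 0.31 (Cyp4f18), -1.64 to 1.49 (Cyp4a12a), -2.43 to 0.90 (Cyp4a12b), -1.65 to 1.67 (Cyp2d9), -0.97 to 2.01 (Cyp2d26), -1.10 to 1.87 (Cyp2d10), -0.72 to 2.71 (Cyp3a11), -0.63 to 2.15 (Cyp3a25), -0.92 to 2.15 (Cyp3a13), -0.42 to 0.27 (Cyp4v3), -0.42 to 0.13 (Cyp2r1), -0.62 to 0.40 (Cyp4f17), -0.23 to 0.055 (Cyp4f16) and -0.37 to 5.03 (Cyp2a4).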

Other observations

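Per 1000 CPM of Alb, 2 P450s of other families had library orders like those of the members above. Cyp7b1, the oxysterol 7α-hydroxylase, known as male-predominant in liver, was at 5.99, 8.09 and 1.77 (WT, mice 1, 2 and 3) and at 4.98, 1.98 and 3.58 (Lpcat3 KOMac, mice 1, 2 and 3). It was highest in the 3 mice that were highest in Cyp4a12a, as were the hepatocyte transcripts Fgb, Apoh and Ttr. Cyp17a1, the steroid 17α-hydroxylase, was at 0.186, 0.166 and 0.348 in WT and 0.121, 0.912 and 0.379 in Lpcat3 KOMac cells and was lowest in those 3 mice. Cyp8b1, the sterol 12α-hydroxylase, showed no such order, at 8.63, 7.91 and 7.88 in WT and 9.87, 5.32 and 8.59 in Lpcat3 KOMac cells. These genes were picked after their values had been seen, and no test was made.

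Cyp26b1, a retinoic acid hydroxylase, followed Alb by the rule but unevenly, at 20.8, 1.52 and 16.9 CPM in WT and 26.6, 42.6 and 4.50 CPM in Lpcat3 KOMac cells. The stellate cell transcript Lrat was at 20.1, 5.43 and 19.6 CPM in WT and 16.2, 28.4 and 10.5 CPM in Lpcat3 KOMac cells. Both were lowest in WT mouse 2 and second lowest in Lpcat3 KOMac mouse 3, and the part of stellate cells in the Cyp26b1 values was not tested.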
